A study of Homo sapiens with 12 samples.

Results

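The MCM helicase genes were followed at the transcript level in CAMA-1 cells, a line established from human breast cancer in which the oestrogen receptor (ER) is expressed. The set was MCM2, MCM3, MCM4, MCM5, MCM6, MCM7, MCM8 and MCM10, taken by gene symbol: 8 of the 60612 named rows of the count table, each symbol occurring on 1 row. Wild-type cells received DMSO as vehicle, abemaciclib at 100 nM, fulvestrant at 5 nM or both drugs, for 5 days per the study's methods, and the labels do not give the doses within the combination. The abemaciclib dose is that of the labels, and the study's methods name a higher one as their default. Abemaciclib inhibits CDK4 and CDK6, the kinases that inactivate the retinoblastoma protein (Rb), and fulvestrant causes degradation of ER. Each of the 4 groups held 3 independent cultures of this single line, giving 12 libraries of 3′ RNA-seq.

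MCM2 to MCM7 encode the 6 related subunits of a ring-shaped helicase that is loaded onto replication origins in G1 and unwinds DNA in S phase. MCM8 encodes a relative that works with MCM9 in repair by homologous recombination. MCM10 encodes an unrelated protein that binds the loaded ring and is needed to start unwinding. Transcription of MCM genes rises towards S phase under E2F factors, which hypophosphorylated Rb restrains, and MCM proteins are widely used as markers of proliferating cells. In bulk RNA, fewer cycling cells and less MCM RNA per cell cannot be told apart.

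The promoters are shown first, because the E2F motif is the feature by which these genes are usually grouped. RefSeq start-site windows (GRCh38.p14), which run from 250 bases before to 50 bases after the start, were held for 6 of the 8 genes: MCM2, MCM3, MCM6, MCM7, MCM8 and MCM10. Where a gene had several windows the first listed was used. An E2F-type match was defined as TTTCCCGC, TTTCGCGC, TTTGCCGC or TTTGGCGC on either strand. Each line below gives 30 bases of the gene's strand, 5′ to 3′, with the E2F-type match in capitals and, for MCM10, both CCAAT boxes in capitals.
MCM2 (chr3:127598404-127598433, plus strand, match at +3): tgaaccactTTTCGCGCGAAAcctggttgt
MCM3 (chr6:52284898-52284927, minus strand, match at -174): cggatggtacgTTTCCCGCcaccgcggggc
MCM3 (chr6:52284728-52284757, minus strand, match at -4): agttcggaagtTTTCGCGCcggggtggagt
MCM6 (chr2:135876575-135876604, minus strand, match at -152): ggctttgcaTTTGGCGCGAAAtccctttcc
MCM6 (chr2:135876513-135876542, minus strand, match at -90): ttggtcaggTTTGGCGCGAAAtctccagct
MCM7 (chr7:100101566-100101595, minus strand, match at -187): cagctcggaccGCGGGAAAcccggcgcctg
MCM7 (chr7:100101388-100101417, minus strand, match at -9): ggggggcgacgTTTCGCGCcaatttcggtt
MCM8 (chr20:5950667-5950696, plus strand, match at +27): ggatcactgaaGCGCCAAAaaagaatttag
MCM10 (chr10:13161434-13161463, plus strand, first CCAAT at -118): gggcgtCCAATgacgtaaaCCAATccgatt

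E2F-type letters were found in 5 of the 6 windows, against 3.33% of 27305 RefSeq promoter windows of the same length. MCM3, MCM6 and MCM7 each held 2 separate matches. The later listed MCM7 windows, which were not used, held 0. In MCM2 and at both MCM6 matches the motif read on both strands as overlapping copies, which is why 12 bases are in capitals. The MCM7 match nearest the start shares its last base with a CCAAT box. The MCM10 window held none of the E2F-type letters and 2 CCAAT boxes, a motif present in 35.7% of all windows and in 5 of these 6. The full oestrogen response element, GGTCA and TGACC with 3 bases between them, was in none of the 6 windows and in 0.0659% of all windows. A match is a description of letters, not of occupancy.

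**Figure D1:**
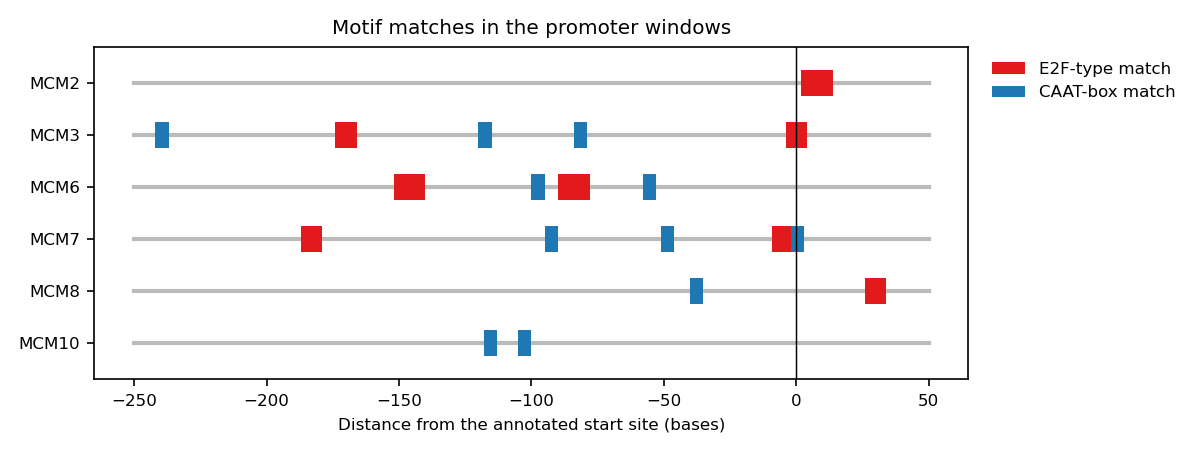
Each line is the promoter window of 1 gene, from 250 bases before to 50 bases after the annotated start (vertical line; x axis in bases). Red boxes are E2F-type matches and blue boxes CAAT-box matches: 5 of the 6 genes have a red box, and MCM10 has only 2 blue boxes.

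In GENCODE v44 on GRCh38, the build used by the authors for alignment, all 8 genes are protein coding. MCM2 lies on chromosome 3 (127598410 to 127622436), MCM3 on chromosome 6 (52264014 to 52284881), MCM5 on chromosome 22 (35400134 to 35425431), MCM6 on chromosome 2 (135839626 to 135876443) and MCM7 on chromosome 7 (100092233 to 100101940). MCM8 lies on chromosome 20 (5950652 to 5998977), MCM10 on chromosome 10 (13161558 to 13211110) and MCM4 on chromosome 8. MCM7 overlaps AP4M1 on the opposite strand. MCM8 overlaps MCM8-AS1 on the opposite strand and a protein-coding gene model without a symbol on its own strand, and MCM2 overlaps a long non-coding RNA on the opposite strand. Whether reads were counted by strand is not stated, so reads of overlapping genes may not be fully separated. AP4M1 stood at 18.4 to 29.2 CPM in the 12 libraries, MCM8-AS1 held 0 reads, and the other overlapping models of MCM8 and MCM2 named here were not analysed.

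Total counts ranged from 3299119 to 5164667 per library. Levels below are CPM, the reads of a gene per 1000000 reads of the TMM-scaled library size, with 11803 genes passing the filter on low counts, all 8 MCM genes among them. The luminal identity of the line was read from 8 markers (ESR1, GATA3, FOXA1, XBP1, KRT8, KRT18, KRT19 and EPCAM), which summed to between 6360 and 6670 CPM in DMSO and between 7380 and 8410 CPM in the treated libraries; the part of this rise in the results was not tested. Of 12 basal, fibroblast, leukocyte and endothelial markers, COL1A1 stood at 14.2 to 25.9 CPM and KRT14 reached 4 reads, whereas no library held more than 3 reads of any of the others. As a check of treatment, the ER target CCND1 stood at 617 ± 5.64 CPM in DMSO, 1327 ± 35.5 with abemaciclib, 195 ± 9.88 with fulvestrant and 232 ± 14.9 with both, and ESR1 at 93.3 ± 5.42, 102.7 ± 3.43, 95.3 ± 10.3 and 81.5 ± 4.52 CPM (SD, n = 3). Fulvestrant replicate 3 stood furthest from its group, with a chi-square per degree of freedom of 9.72 and 15.3 against the other 2 libraries, where the other 10 replicate pairs gave 1.87 to 5.59.

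MCM transcripts were abundant in vehicle-treated cells and lower in each drug group. The kit reads 1 tag near the 3′ end of a transcript, so CPM was compared between genes without division by length. In DMSO the order was MCM3 (275 ± 3.80 CPM), MCM2 (153 ± 21.2), MCM4 (133 ± 6.58), MCM7 (127 ± 3.52), MCM10 (108.9 ± 3.86), MCM6 (79.7 ± 9.85), MCM5 (75.4 ± 4.01) and MCM8 (39.4 ± 3.63; SD, n = 3 throughout). Library ranges overlapped between MCM2 and MCM4, MCM2 and MCM7, MCM4 and MCM7, and MCM6 and MCM5. The order within these pairs was therefore not resolved. Summed over MCM2 to MCM7, the level was 843 ± 8.02 CPM in DMSO, 304 ± 6.92 with abemaciclib, 217 ± 7.87 with fulvestrant and 174.5 ± 18.4 with both drugs. These sums were 36.1%, 25.7% and 20.7% of DMSO in the drug groups.

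**Figure D2:**
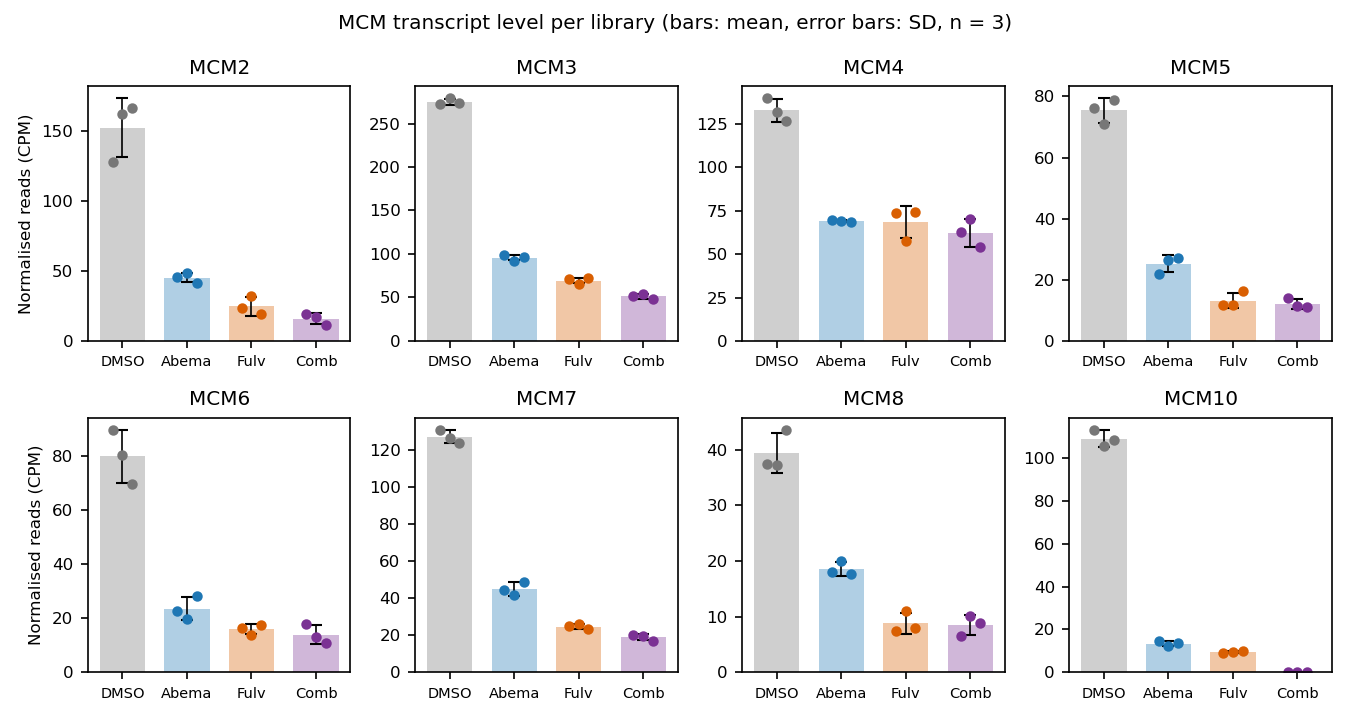
Level of each MCM transcript in CPM (y axis from 0, scaled per gene) in DMSO, abemaciclib (Abema), fulvestrant (Fulv) and the combination (Comb). Points are libraries, bars means and error bars SD (n = 3). Every treated library lies below every DMSO library for all 8 genes, MCM4 lies between 54.2 and 74.1 CPM in every treated library, and MCM10 is at or near 0 in the combination.

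The first question was how CDK4/6 inhibition alone acts on these genes. Abemaciclib lowered all 8 of 8 genes (quasi-likelihood test of edgeR at a Benjamini-Hochberg adjusted p under 0.05), where 20.7% of all genes tested were called lower. The median log2 fold change was -1.55, against 0.00046 over all genes tested. In each of the 8 genes the abemaciclib libraries lay below the DMSO libraries without overlap, which was so for 27.2% of all genes.

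MCM3 measured 272, 279 and 274 CPM in the DMSO libraries and 98.2, 92.3 and 97.0 CPM in the abemaciclib libraries. Its fall by 1.52 ± 0.08 on the log2 scale (SE; adjusted p 1.33e-14) had the smallest SE of the set. The coefficient of variation of its DMSO libraries was 1.38%, a value that 3 libraries measure only roughly. MCM2, whose subunit also carries a histone-binding tail, measured 128, 163 and 167 CPM in DMSO and 45.6, 48.6 and 41.7 CPM in abemaciclib. The DMSO libraries of MCM2 were spread more widely (coefficient of variation 13.9%), and the level fell by 1.75 ± 0.16 (adjusted p 1.54e-07), with no overlap between the groups. MCM7 measured 131, 127 and 124 CPM in DMSO and 44.4, 41.9 and 49.0 CPM in abemaciclib.

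MCM5 and MCM6 were the least abundant ring subunits in DMSO. MCM5 measured 76.3, 71.1 and 79.0 CPM in DMSO and 22.01, 26.5 and 27.3 CPM in abemaciclib. MCM6 measured 89.3, 80.2 and 69.7 CPM in DMSO and 22.6, 19.9 and 28.0 CPM in abemaciclib. Their log2 fold changes were -1.58 ± 0.13 and -1.76 ± 0.15, and that of MCM7 was -1.50 ± 0.10 (SE; adjusted p 1.26e-10, 2.14e-10 and 2.06e-12).

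MCM4 fell least among the ring subunits. It measured 139.8, 132 and 127 CPM in DMSO and 69.8, 69.1 and 68.7 CPM in abemaciclib, and the 3 abemaciclib libraries agreed closely. The log2 fold change was -0.94 ± 0.10 (SE; adjusted p 2.65e-08), leaving 52.1% of the DMSO mean, whereas the other ring subunits kept 29.5% to 35.4%. MCM8, the repair relative, also kept more. It measured 37.4, 37.2 and 43.6 CPM in DMSO and 18.0, 20.1 and 17.7 CPM in abemaciclib (log2 fold change -1.08 ± 0.15, adjusted p 1.8e-06).

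MCM10 fell furthest of the 8. It measured 113, 105 and 108 CPM in DMSO and 14.4, 12.1 and 13.6 CPM in abemaciclib, a level 8.13-fold lower. The log2 fold change was -3.02 ± 0.13 (SE; adjusted p 3.2e-16), the rank of 28 from the lowest among 11803 genes.

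Fulvestrant alone was then compared with DMSO. It lowered all 8 of 8 genes, where 25.7% of all genes were called lower, with a median log2 fold change of -2.33 (0.0076 over all genes). Libraries did not overlap for any of the 8, as for 28.1% of all genes. This comparison shares its DMSO libraries with the preceding one.

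MCM2 measured 23.2, 32.4 and 18.9 CPM in fulvestrant, and its log2 fold change was -2.64 ± 0.17 (SE; adjusted p 1.32e-09). MCM3 measured 70.7, 65.7 and 71.8 CPM (-1.98 ± 0.08, adjusted p 3.59e-17). MCM7 measured 25.0, 26.2 and 23.2 CPM (-2.36 ± 0.11, adjusted p 3.41e-16). Among these, replicate 2 was high for MCM2 and low for MCM3, so no library was uniformly high. MCM5 measured 11.6, 11.8 and 16.2 CPM (-2.50 ± 0.14, adjusted p 3.95e-14), and MCM6 16.6, 13.8 and 17.5 CPM (-2.30 ± 0.16, adjusted p 1.71e-12).

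MCM4 again stood apart from the other ring subunits, at 73.6, 57.5 and 74.1 CPM. Its log2 fold change was -0.95 ± 0.10 (SE; adjusted p 1.28e-08), and its mean of 51.5% of DMSO was close to its mean in abemaciclib. MCM8 measured 7.41, 11.0 and 7.98 CPM (-2.18 ± 0.17, adjusted p 3.51e-11). MCM10 measured 8.89, 9.31 and 10.0 CPM, an 11.6-fold lower level (-3.52 ± 0.14, adjusted p 1.41e-17).

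Set against each other, the single drugs left different amounts of MCM transcript. Abemaciclib libraries were higher than fulvestrant libraries for 7 of 8 genes, where 15.5% of all genes were called higher. MCM8 differed most, by 1.09 ± 0.19 on the log2 scale (SE; adjusted p 5.99e-05), followed by MCM5 (0.92 ± 0.16, adjusted p 5.77e-05), MCM2 (0.88 ± 0.19, adjusted p 0.00176), MCM7 (0.86 ± 0.12, adjusted p 1.52e-06) and MCM3 (0.46 ± 0.08, adjusted p 1.07e-04). No difference was detected for MCM4 (0.01 ± 0.11, adjusted p 0.947; 95% interval -0.20 to 0.22). The calls for MCM6 (0.54 ± 0.18, adjusted p 0.0211) and MCM10 (0.51 ± 0.17, adjusted p 0.0268) depended on the libraries and the fit. MCM6 lost its call without abemaciclib replicate 3 or fulvestrant replicate 2, and MCM10 without abemaciclib replicate 1 or 3 or fulvestrant replicate 1 or 2. With all libraries kept, MCM10 also missed with DESeq2 (adjusted p 0.0618) and with only these 2 groups fitted (adjusted p 0.0645).

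**Figure D3:**
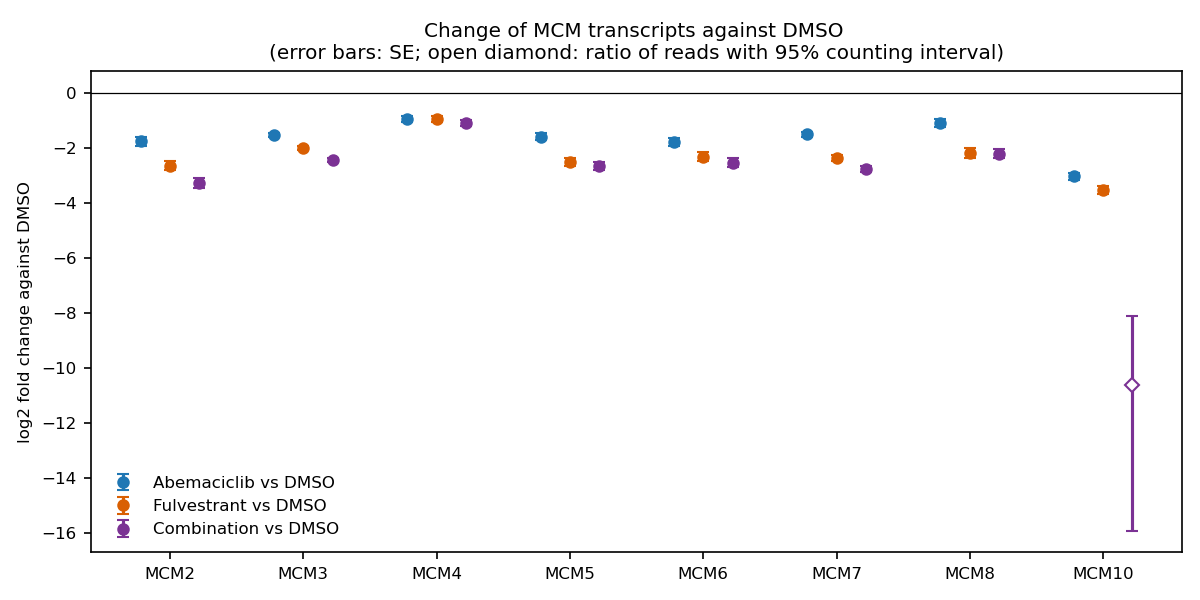
Log2 fold change against DMSO (y axis) for each gene under abemaciclib (blue), fulvestrant (orange) and the combination (purple), with SE. The open diamond for MCM10 in the combination is the ratio of summed reads with its 95% counting interval, since these libraries held 1 read between them. MCM4 lies near -1 under each treatment, and the other ring subunits fall to between -1.98 and -3.27 once fulvestrant is present.

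The combination lowered all 8 genes against DMSO (27.5% of all genes were called lower), with a median log2 fold change of -2.59 (0.010 over all genes). Without overlap, all combination libraries lay below all DMSO libraries for the 8 genes, as for 30.7% of all genes. The ring subunits ranged from -1.09 ± 0.10 for MCM4 to -3.27 ± 0.18 for MCM2 (SE; adjusted p 7.03e-10 and 1e-10).

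MCM2 stood at 19.2, 17.4 and 11.5 CPM in the combination, 9.52-fold lower than in DMSO. MCM7 stood at 20.2, 19.4 and 17.1 CPM, 6.74-fold lower. MCM3 stood at 51.5, 53.8 and 48.5 CPM, 5.36-fold lower. Replicate 3 was the lowest combination library for these 3 genes. MCM5 stood at 14.0, 11.4 and 11.1 CPM, and MCM6 at 17.8, 13.0 and 10.9 CPM. MCM4 stood at 62.6, 70.1 and 54.2 CPM, 2.13-fold lower than in DMSO. MCM8 stood at 6.50, 10.1 and 8.93 CPM, 4.63-fold lower.

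MCM10 was at or near 0 in the combination. Its reads numbered 381, 555 and 523 in the DMSO libraries, 72, 55 and 54 with abemaciclib, 36, 33 and 44 with fulvestrant, and 0, 1 and 0 with both drugs. With 1 read against 1459 in DMSO, the ratio of summed reads over summed library sizes was 1530, with a 95% interval of 275 to 60600 (exact, conditional on the total). The size of such a ratio rests on that 1 read, and the interval covers counting error only, not the spread between cultures. The interval also treats reads as independent, although no molecular identifiers are named, so it may be too narrow. For fulvestrant alone (113 reads) the ratio was 133 (23.5 to 5310), and for abemaciclib alone (181 reads) it was 190 (33.6 to 7540). All 3 differences passed the test across genes (adjusted p 2.82e-21 against DMSO, 1.6e-13 against abemaciclib and 5.7e-11 against fulvestrant).

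What fulvestrant adds to abemaciclib was read from the combination against abemaciclib alone. Of the 8 genes, 7 fell (17.7% of all genes were called lower), with a median log2 fold change of -1.09 (0.011 over all genes). Apart from MCM10, MCM2 fell by 1.51 ± 0.19 (SE; adjusted p 1.14e-05) and MCM7 by 1.26 ± 0.12 (adjusted p 2.08e-09). MCM8 fell by 1.11 ± 0.18 (adjusted p 2.56e-05), MCM5 by 1.06 ± 0.16 (adjusted p 5.26e-06), MCM3 by 0.90 ± 0.09 (adjusted p 2.69e-09) and MCM6 by 0.77 ± 0.18 (adjusted p 0.0012). MCM4 did not pass, with a value of -0.15 ± 0.11 (adjusted p 0.281), a 95% interval of -0.36 to 0.05 and overlapping libraries.

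What abemaciclib adds to fulvestrant was read from the combination against fulvestrant alone, a comparison that shares its combination libraries with the preceding one. It showed lower levels for 2 of the 8 genes, MCM3 and MCM10, where 1.63% of all genes were called lower, and the median was -0.31 (0.00084 over all genes). Without fulvestrant replicate 3, 403 of 12069 genes were called lower in place of 192 of 11803, and 3 of the 8 MCM genes. MCM3 fell by 0.44 ± 0.09 (SE; adjusted p 0.00343) and its libraries did not overlap, which was so in this direction for 7.44% of all genes. That call was lost when only these 2 groups were fitted (adjusted p 0.066).

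MCM2 had a value of -0.63 ± 0.21 (adjusted p 0.201) and MCM7 of -0.39 ± 0.13 (adjusted p 0.143). MCM7 libraries were separate, at 17.1 to 20.2 against 23.2 to 26.2 CPM, whereas those of MCM2 overlapped. MCM2 passed without fulvestrant replicate 3, the library least like the others of its group, at -0.80 (adjusted p 0.0222), and with no filter on low counts (adjusted p 0.00284). Values for MCM6 (-0.23 ± 0.19), MCM5 (-0.14 ± 0.18), MCM4 (-0.14 ± 0.11) and MCM8 (-0.02 ± 0.21) did not pass (adjusted p 0.709, 0.816, 0.678 and 0.986), and their 95% intervals reached down to -0.59, -0.49, -0.35 and -0.43. At 27 to 77 reads per library in MCM5, MCM6 and MCM8, counting error limits what could be seen here.

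Whether the abemaciclib effect differed with and without fulvestrant was tested by the interaction, the abemaciclib change with fulvestrant minus the change without it. All 8 genes passed, 7 with a positive value, meaning a smaller fall with fulvestrant, and MCM10 with a negative one. Among all genes, 9.49% were called positive and 11.6% negative. The change without and the change with fulvestrant rest on separate libraries.

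For MCM6 the abemaciclib change went from -1.76 ± 0.15 without to -0.23 ± 0.19 with fulvestrant, an interaction of 1.54 ± 0.24 (SE; adjusted p 3.49e-05). MCM5 followed at 1.44 ± 0.22 (adjusted p 2.35e-05). The values were 1.12 ± 0.27 for MCM2 (adjusted p 0.00641), 1.11 ± 0.16 for MCM7 (adjusted p 1.51e-05), 1.08 ± 0.12 for MCM3 (adjusted p 1.66e-07), 1.07 ± 0.26 for MCM8 (adjusted p 0.00405) and 0.80 ± 0.15 for MCM4 (adjusted p 2.8e-04). MCM10 went the other way. Abemaciclib lowered it 8.13-fold without fulvestrant, and with fulvestrant its reads went from 36, 33 and 44 to 0, 1 and 0. The interaction of MCM10 was negative (adjusted p 2.78e-04), but its fitted size rests on 1 read and depends on the count added to 0.

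**Figure D4:**
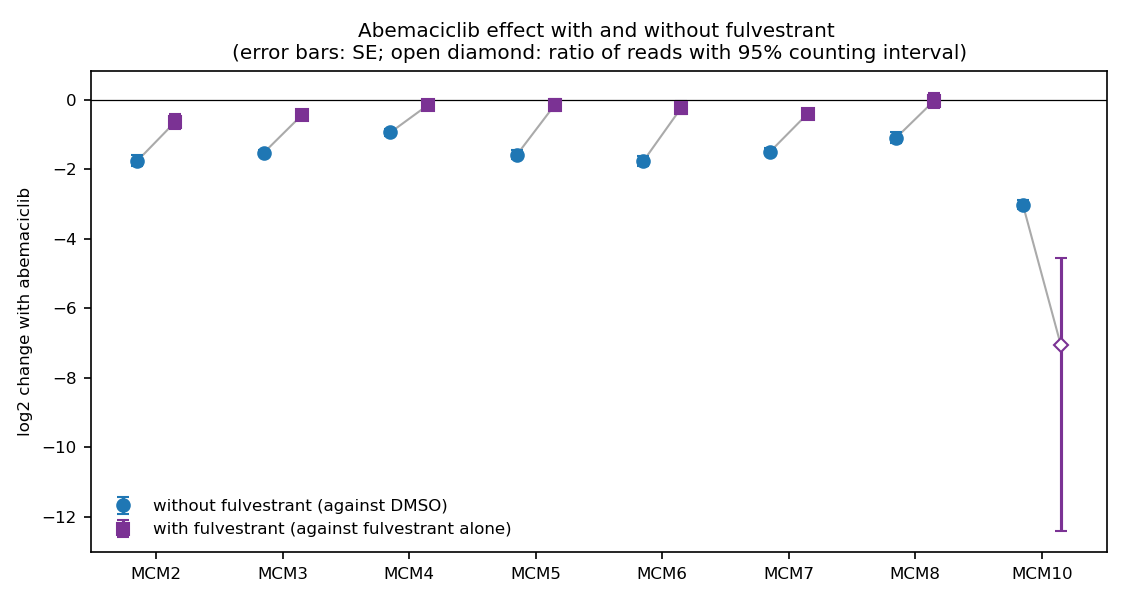
Change with abemaciclib on the log2 scale (y axis), without fulvestrant (circles, against DMSO) and with it (squares, against fulvestrant alone), with SE. Grey lines join the pair for each gene and rise for 7 genes; the line for MCM10 falls to an open diamond at -7.06, the ratio of summed reads with its 95% counting interval.

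MCM10 was also set against the ring subunits inside each library, so that no scaling by library size enters. Per 1000 reads of MCM2 to MCM7 together, MCM10 had 135, 124 and 129 reads in the DMSO libraries. It had 47.6, 40.7 and 43.8 with abemaciclib and 40.3, 44.8 and 45.2 with fulvestrant. Both drug groups thus lay well below DMSO and overlapped each other. In the combination the values were 0, 1.12 and 0, where 3 reads would have given 3.35 to 3.90.

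On the log2 scale, with 0.5 added to each count, the ratio of MCM10 to the geometric mean of MCM2 to MCM7 differed from DMSO by -1.51 in abemaciclib and by -1.39 in fulvestrant. In combination libraries with 0 MCM10 reads, the ratio is set by the 0.5 added and by the number of ring reads, which depends on depth. Libraries were fully separated in 5 of the 6 pairs of groups, and in each of these the exact two-sided permutation p was 0.1, the smallest that 3 against 3 allows (0.2 after Benjamini-Hochberg adjustment over 12 comparisons of 2 genes). Abemaciclib and fulvestrant differed by -0.12 (exact p 0.3, adjusted 0.45, n = 3).

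MCM8 moved more nearly in step with the ring. It had 44.7, 43.7 and 51.9 reads per 1000 in DMSO, 59.5, 67.4 and 56.7 with abemaciclib, 33.6, 53.0 and 36.0 with fulvestrant and 35.1, 54.8 and 58.3 in the combination. The abemaciclib libraries lay above the DMSO libraries without overlap, by 0.43 on the log2 ratio (exact permutation p 0.1, adjusted 0.2, n = 3). On that ratio the other 5 pairs of groups overlapped.

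The make-up of the ring transcripts shifted towards MCM4. MCM4 took 15.8 ± 0.84% of the MCM2 to MCM7 reads in DMSO, 22.8 ± 0.62% with abemaciclib, 31.5 ± 3.27% with fulvestrant and 35.7 ± 2.07% in the combination (SD, n = 3). Its libraries were separate in all 6 pairs of groups, each with an exact permutation p of 0.1 (adjusted 0.2 over 36 comparisons). The shares of the other 5 subunits were lower in the combination than in DMSO on average. Shares are parts of a fixed total, so a rise for MCM4 requires the sum of the other 5 to fall. The 36 comparisons are therefore not independent of each other. The gain in share of MCM4 restates its smaller fall in CPM and is not a separate result. MCM7 went from 15.1 ± 0.49% in DMSO to 14.8 ± 0.84% with abemaciclib, 11.5 ± 1.09% with fulvestrant and 10.9 ± 0.33% in the combination, with separate libraries in 4 of the 6 pairs. MCM2 went from 18.1 ± 2.43% in DMSO to 14.9 ± 1.46%, 11.6 ± 3.66% and 9.08 ± 1.48%, with separate libraries in 2 pairs. MCM3 stood at 32.6 ± 0.14% in DMSO, 31.5 ± 0.83%, 32.0 ± 0.36% and 29.5 ± 1.99%, and each drug group lay below DMSO without overlap. The gap was narrow for the single drugs, whose highest libraries stood at 32.45% (abemaciclib) and 32.37% (fulvestrant) against 32.49% for the lowest DMSO library. Gaps this narrow may be counting error. MCM5 went from 8.95 ± 0.55% in DMSO to 6.97 ± 0.73% in the combination and was separate in 2 pairs, and MCM6 from 9.46 ± 1.19% to 7.92 ± 1.47% and was separate in 1 pair. Every separate pair had an exact permutation p of 0.1, adjusted 0.2. In the combination MCM4 was the most abundant of the 8 transcripts, at 54.2 to 70.1 CPM against 48.5 to 53.8 CPM for MCM3, and in fulvestrant their library ranges overlapped. Below them in the combination, MCM7, MCM2, MCM6 and MCM5 followed with overlap between neighbours, and MCM8 lay below MCM5 without overlap.

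**Figure D5:**
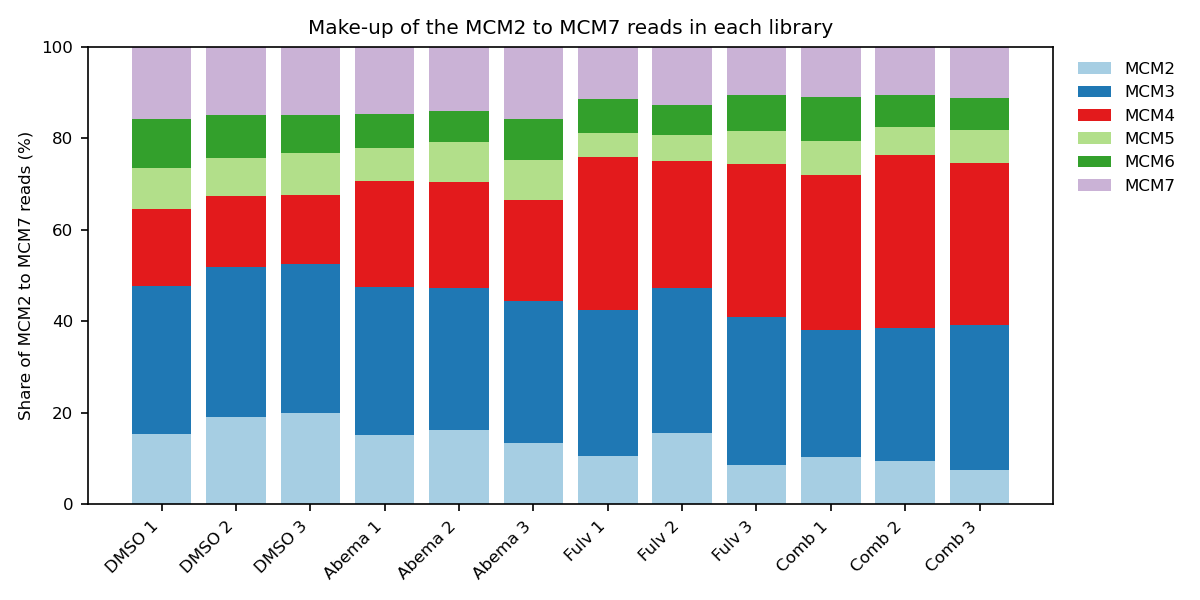
Share of the reads of MCM2 to MCM7 (y axis, percent, stacked to 100) taken by each subunit in each of the 12 libraries. The MCM4 band (red) widens from 15.1 to 16.7% in DMSO to 33.8 to 37.9% in the combination, while the MCM2 band (light blue) narrows.

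Several MCM genes start close to another gene on the opposite strand, and these partners were read beside them. MCM4 and PRKDC, which encodes a DNA repair kinase, start 7 bases apart, and PRKDC measured 73.3 CPM in DMSO, 60.7 with abemaciclib, 57.1 with fulvestrant and 55.9 with both. PRKDC fell in the combination by 0.38 ± 0.11 (SE; adjusted p 0.00449). TRMT6, a tRNA methyltransferase subunit gene 94 bases from the MCM8 start, fell by 1.30 ± 0.10 (adjusted p 1.41e-11). TPRA1, 143 bases from the MCM2 start, rose by 1.04 ± 0.15 (adjusted p 8.2e-07). Distances here are between GENCODE starts. The RefSeq promoter window shown for MCM7 lies within the GENCODE span of that gene, so its start differs. No change was detected for AP4M1, 391 bases from the GENCODE start of MCM7 (0.08 ± 0.14, adjusted p 0.647). The partners thus did not share 1 direction in the combination.

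Genes that load and activate the helicase were counted from lists. Of 9 loading genes (ORC1 to ORC6, CDC6, CDT1 and GMNN), 6 fell with abemaciclib, 6 with fulvestrant and 7 in the combination, and none rose, where 20.7%, 25.7% and 27.5% of all genes were called lower. Their median in the combination was -3.39. CDT1, which brings the MCM ring to origins, stood at 89.9 ± 4.87 CPM in DMSO and 1.84 ± 0.16 CPM in the combination, and GMNN, its inhibitor, at 71.7 ± 4.72 and 6.84 ± 1.45 CPM (SD, n = 3). ORC5, an origin recognition subunit, did not pass (log2 fold change -0.29 ± 0.15, adjusted p 0.111).

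Of 13 activation genes (CDC7, DBF4, CDC45, GINS1 to GINS4, TICRR, MTBP, TOPBP1, RECQL4, DONSON and WDHD1), all 13 fell in each drug group against DMSO (the same 20.7%, 25.7% and 27.5% of all genes), with medians of -1.46, -2.13 and -2.42 in abemaciclib, fulvestrant and the combination. RECQL4, TOPBP1 and DBF4 were the most abundant, and their log2 fold changes in the combination were -1.05 ± 0.09, -1.12 ± 0.12 and -2.34 ± 0.13 (SE; adjusted p 1.82e-10, 5.67e-09 and 1.46e-14). Levels near 0 in the combination were not limited to MCM10. TICRR went from 15.8 ± 2.19 CPM in DMSO (SD, n = 3) to at most 1 read per combination library. CDC45 went from 35.9 ± 7.87 CPM to at most 4 reads. The interaction was positive and past the threshold for 6 of the 13 activation genes and negative for none, where 9.49% of all genes were called positive and 11.6% negative. It was positive for 1 of the 9 loading genes (GMNN), a share near that of all genes, and negative for none.

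Of 5 relatives and partners, 4 were tested and MCMDC2 was too low to test. HROB, which loads MCM8 and MCM9, stood at 4.58 ± 0.65 CPM in DMSO (SD, n = 3) and fell in the combination, where no library held more than 3 reads (adjusted p 5.52e-06). MCMBP, which binds MCM subunits, fell by 1.16 ± 0.22 (SE; adjusted p 2.31e-04). MCM9, the partner of MCM8, had a value of 0.40 ± 0.33 (adjusted p 0.318) at 3.61 ± 0.54 CPM in DMSO, and MCM3AP had one of -0.05 ± 0.14 (adjusted p 0.766).

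The genes whose pattern was most like that of the ring were found by the root mean square difference of their 3 log2 fold changes against DMSO from the median of MCM2 to MCM7 (-1.55, -2.33 and -2.59). They were RNF157 (0.0322), CHAF1A (0.113), AC012073.1 (0.122), BARD1 (0.135) and GPAT3 (0.156). CHAF1A encodes a subunit of the chromatin assembly factor that follows replication forks, and BARD1 the partner of BRCA1. RNF157, AC012073.1 and GPAT3 averaged 3.68, 2.23 and 2.82 CPM, so their place rests on few reads. The ring subunits themselves lay at 0.103 (MCM5 and MCM7), 0.128 (MCM6), 0.223 (MCM3), 0.448 (MCM2) and 1.23 (MCM4), and MCM8 at 0.362. The median was taken from these same subunits, so the middle ones lie near it by construction. MCM10 lay at 4.47, a value that rests on its 1 read in the combination.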

How the data were processed

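The deposited file holds raw read counts per gene symbol for 12 QuantSeq 3′ mRNA (FWD) libraries. Per the study's methods and the labels, the authors trimmed reads with BBDuk, aligned them to hg38 with STAR and made the counts with featureCounts 2.0.1 on GENCODE annotation; the strand setting is not given in the sources used here, and no molecular identifiers are named, so reads are not independent molecules. The 44 rows without a gene name held 0 reads and were left out. Groups came from the treatment label.

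Counts were analysed with edgeR 4.0.16 in R 4.3.3: filterByExpr (minimum count 10, minimum total 15), TMM factors, 1 model of 4 group means over all libraries, robust quasi-likelihood F tests (common biological coefficient of variation 0.0918) and Benjamini-Hochberg adjustment over 11803 genes at 0.05. SE was derived from the F statistic, and 95% intervals are 1.96 SE on either side. Alternatives were DESeq2 1.42.0 (the study's tool), other scalings, no filter, only the groups compared, a replicate block and leaving out each library. On simulated counts for abemaciclib against DMSO, 164 of 200 genes changed 2-fold were recovered among 11571 tested, with 12 false calls. For the interaction it was 119 of 200 among 11549, with 7 false calls. The simulation gave every gene the common coefficient of variation and changed only these 200 genes. It therefore does not measure how the tests perform on real libraries of uneven spread.

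The genes, the loading, activation, partner and marker lists, and the naming rule (all members; 3 most abundant genes per list; partners starting within 1000 bases on the other strand; 5 nearest patterns; ESR1 and CCND1) were chosen with earlier results of these data known. HROB, TICRR, ORC1 and CDC45 were named outside that rule, and the tests of subunit shares were added, after values were seen. Promoter sequences are from RefSeq (GRCh38.p14).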

Additional observations from a re-analysis of the deposited data

Results flagged for a closer look

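For each of the 8 MCM genes the abemaciclib effect differed with and without fulvestrant by the interaction test, in log2 units with minus without fulvestrant (edgeR quasi-likelihood test). The difference was 1.12 for MCM2, 1.08 for MCM3, 0.80 for MCM4, 1.44 for MCM5, 1.54 for MCM6, 1.11 for MCM7 and 1.07 for MCM8. For MCM10 the fitted difference was -3.56; it rests on 1 read in the combination and depends on the count added to 0. The fitted value for MCM10 was -5.37 without combination replicate 2, the one combination library with an MCM10 read, and -3.07 without combination replicate 3. The groups of 3 libraries were too small to test for single outlying libraries.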

How the results depend on the processing

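Over the settings tried, 1056 values of single MCM genes were recomputed: 1040 kept their direction and call, 9 lost a call, 2 gained one and 5 changed sign. The number of MCM genes called moved by over 1.5 times once in 132 values, from 2 to 1 for the combination against fulvestrant with only those groups fitted, where MCM3 lost its call (adjusted p 0.066; range over its 19 alternatives 0.00261 to 0.066) and calls over all genes went from 227 to 125; they were 588 without fulvestrant replicate 3 and 146 without combination replicate 3. In the same comparison the adjusted p of MCM2 ranged from 0.00284 to 0.513. For abemaciclib against fulvestrant it ranged from 0.00602 to 0.13 for MCM6 and from 0.0266 to 0.102 for MCM10, which also missed with DESeq2 (0.0618) and with only those groups fitted (0.0645). Sign changes were confined to values that had not passed: MCM8 in the combination against fulvestrant with library totals alone (0.031), without fulvestrant replicate 2 (0.16) and without combination replicate 1 (0.13; -0.16 to 0.16 when 1 library was left out), MCM5 there without fulvestrant replicate 3 (0.040; -0.25 to 0.040), and MCM4 in abemaciclib against fulvestrant without fulvestrant replicate 2 (-0.093).

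The log2 ratio of MCM10 to the ring in the combination depends on the pseudocount: against DMSO, abemaciclib and fulvestrant it was -7.02, -5.51 and -5.63 with 0.5 counts added and -5.38, -3.89 and -4.02 with 2. Leaving out 1 library gave -7.50 to -6.76, -6.00 to -5.25 and -6.12 to -5.37. For MCM8 the ratio of fulvestrant to DMSO ranged from -0.22 to 0.073 and that of the combination to abemaciclib from -0.35 to 0.070. The cause of these changes was not tested.

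No pairing by replicate number was detected. Deviations of same-numbered libraries correlated between -0.215 and 0.119, and those of other-numbered libraries between -0.208 and 0.301. Of the 12 libraries, 5 correlated best with their own number. With 3 libraries per group, these values cannot exclude that cultures were set up in matched batches. The replicate block left all 56 MCM values with the same direction and call, and calls in the combination against fulvestrant went from 227 to 203. In the combination against fulvestrant, counts of 27 to 115 reads per library for MCM2, MCM5, MCM6 and MCM8 limited the precision, with SE of 0.18 to 0.21.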
